A study of Rattus norvegicus with 150 samples.

Results

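The comparison set gastrocnemius muscle that had held depleted uranium (DU) for 3 months against muscle that had held tantalum (Ta) for the same time. Its members were the 7 DU libraries numbered 1 and 3 to 8 and the 8 Ta libraries of 3 months, 15 of the 150 RNA-seq libraries in the series, which form 19 groups of metal and time. The members were chosen by label, and DU replicate 2 was left out because its expression profile stood apart from that of the other muscle libraries. All rats were male Sprague-Dawley animals, bought at about 30 days of age and rested for at least 2 weeks before surgery. In both groups each rat had 4 cylinders of its metal, 2 per limb, 1 mm across and 2 mm long, so that surgery and a foreign body were common to both. Ta was the sham metal. DU and Ta libraries of 1, 6 and 12 months, and libraries of 3 months with the metal labelled P, were used for comparison. Libraries of the remaining groups, among them those with nickel (Ni) and cobalt (Co), were used for description and in the model with all libraries. The study planned 8 rats per group, but the labels do not say which rat gave which library. The p-values therefore measure only the spread between libraries, which may in part be technical.

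Depleted uranium is the dense metal left when most of the fissile isotope has been taken out of natural uranium. It is known as a chemical poison of the kidney, and fragments of it have stayed in the muscle of wounded soldiers for years. Tantalum is a corrosion-resistant metal used in surgical implants. A solid piece in muscle is usually walled off by macrophages and a fibrous capsule, while the fibres around it are injured by the surgery and regenerate. A bulk muscle library mixes fibres with all of these cells, and fewer cells of a type cannot be told apart from less RNA per cell.

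The deposited table gives genes only by Ensembl identifier, and the gene table used here paired none of the 32545 identifiers with a name. No gene could therefore be placed in a pathway or cell type, and the labelled tissue could not be checked against its defining markers. The results below are given by gene groups that the counts themselves define and by 4 identifiers.

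The DU libraries were sequenced more deeply. Total counts were 16160763 to 21284133 in the 7 DU libraries and 13151616 to 15771170 in the 8 Ta libraries, with no overlap, against a median of 15778710 over the series. The part of depth in the results was not tested beyond the fit to thinned counts given below. The DU libraries were also more alike. Levels are given as CPM, a gene's count over the library total in units of 1e+06 counts, with the total scaled by edgeR's TMM factor. The correlation of log2 CPM ran from 0.941 to 0.977 between DU libraries, with a median of 0.963, and from 0.867 to 0.973 between Ta libraries, with a median of 0.934. Between the groups the correlations ran from 0.858 to 0.972. The SD between libraries was larger in Ta than in DU for 74.4% of the genes tested. DU replicate 5 had the lowest TMM factor of its group at 0.722.

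DU replicate 2 carried a second set of abundant transcripts, and traces of the same transcripts were counted in most other DU libraries of 3 months. A total of 314 genes reached at least 100 CPM in replicate 2 and at least 50 times their median in the other 149 libraries, a list made after seeing the data. For this choice CPM was taken over the unscaled library total, and medians under 0.1 CPM were set to 0.1. The 314 genes took 53.1% of the counts of replicate 2. In DU replicates 1, 3, 4, 5, 6, 7 and 8 they took 0.0541%, 1.90%, 0.231%, 0.145%, 0.216%, 0.150% and 0.0837% of the counts, and in the Ta libraries of 3 months 0.0395% to 0.0932%. Among these DU libraries replicate 3 was the highest by far, and replicates 1 and 8 lay within the range of Ta. In Co replicates 1 to 8 of 3 months the share was 0.0773%, 0.951%, 0.253%, 0.0630%, 0.0722%, 0.804%, 0.0959% and 0.722%. Co replicates 2, 3, 6 and 8 were thus above DU replicates 4 to 8.

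The pattern was sharper for 58 of these genes that had at most 2 counts in any Ta library of any time. Together they had 618430 counts in DU replicate 2. In DU replicates 1, 3, 4, 5, 6, 7 and 8 they had 6, 15324, 1227, 705, 1428, 567 and 244 counts, against 0 to 14 in the Ta libraries of 3 months, where low counts were a condition of the choice. In the 16 libraries of 3 months with P or Ni they had 0 to 9 counts, and in the 8 with Co 1 to 109. The highest sum among the 142 libraries outside the DU group of 3 months was 139. Set against the level in replicate 2, the share of the 58 genes was 2.69% in replicate 3, 0.230% in replicate 4, 0.209% in replicate 6, 0.134% in replicate 5, 0.109% in replicate 7 and 0.0458% in replicate 8. In replicate 1 it was 0.000989%. All 58 genes had counts in replicates 3, 4 and 6, as they had in replicate 2. How these transcripts came to be counted in the other DU libraries was not tested.

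**Figure D1:**
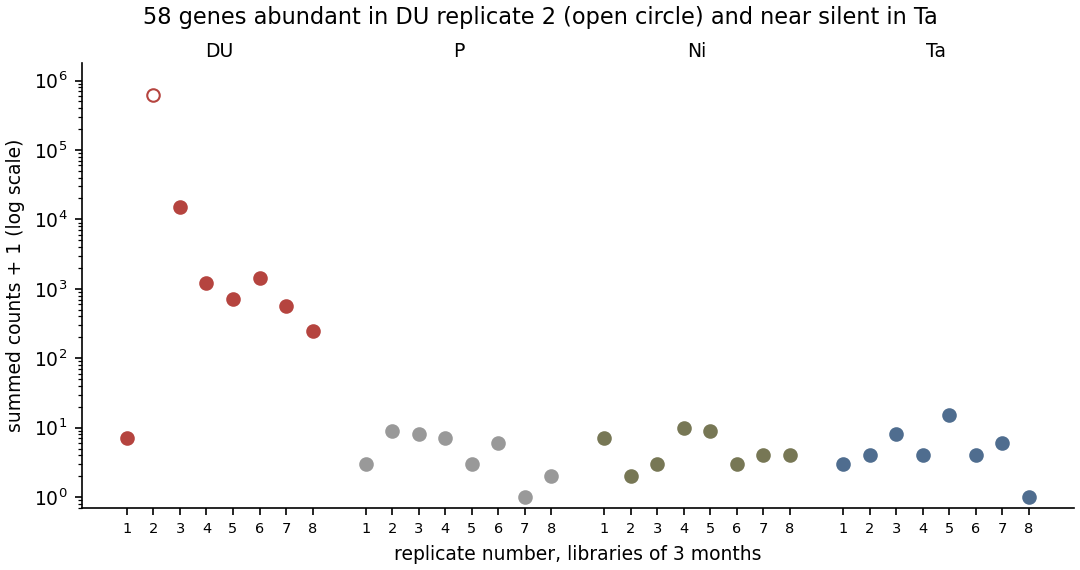
Summed counts plus 1 (log scale) of 58 genes that were abundant in DU replicate 2 and near silent in Ta, for each library of 3 months with DU, P, Ni or Ta. DU replicates 3 to 8 had 244 to 15324 counts, while DU replicate 1 and the P, Ni and Ta libraries had at most 14. Co libraries of 3 months, not drawn, had 1 to 109.

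The first question was how muscle around DU differed from muscle around the sham metal. Of 12291 genes with enough counts to be tested, 260 were higher (2.12%) and 484 lower (3.94%) with DU at an adjusted p under 0.05 (edgeR quasi-likelihood test, Benjamini-Hochberg adjustment), 6.05% in all. The changes were mostly small, and those over 2-fold numbered 59 among the rises and 119 among the falls. All tested genes together had a median log2 fold change of -0.03. The calls lay close to the threshold. Their adjusted p ran from 0.0335 to 0.0499, with a median of 0.0415, and another 1720 genes had one between 0.05 and 0.10. An unadjusted p under 0.05 was found for 3846 genes, 31.3% of those tested, 1661 of them higher and 2185 lower with DU.

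This many calls depended on which libraries were in the fit. Of the 15 fits that each left out 1 library, 7 called no gene: those without DU replicate 4 or 5 and those without Ta replicate 2, 5, 6, 7 or 8. In these 7 fits 3127 to 3677 genes still had an unadjusted p under 0.05 by edgeR, against 3846 with all 15 libraries. Without DU replicate 3 or 8 there were 5 calls, and without DU replicate 1 there were 138. Without Ta replicate 1 there were 2587 calls and without Ta replicate 3 there were 1810. Without DU replicate 6 there were 862, without DU replicate 7 there were 551, and without Ta replicate 4 there were 851. With DU replicate 2 included, no gene was called, and with library totals in place of TMM factors none was called either. Counts thinned to the total of the smallest library gave 731 calls, 651 of them among the 744. Thinning equalled the totals only. The share of counts in 20 genes, those most abundant by median over all libraries but DU replicate 2, was taken before thinning. It ran from 36.4% to 51.4% with DU and from 19.5% to 53.8% with Ta. DESeq2 called 2279 genes, 1112 of them higher with DU. With the replicate number as a block edgeR called 1779, 932 of them higher and 847 lower. The surplus of falls over rises was not kept in all fits: limma voom with quality weights called 2482 higher and 2276 lower, and the model with all libraries 989 higher and 586 lower.

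**Figure D2:**
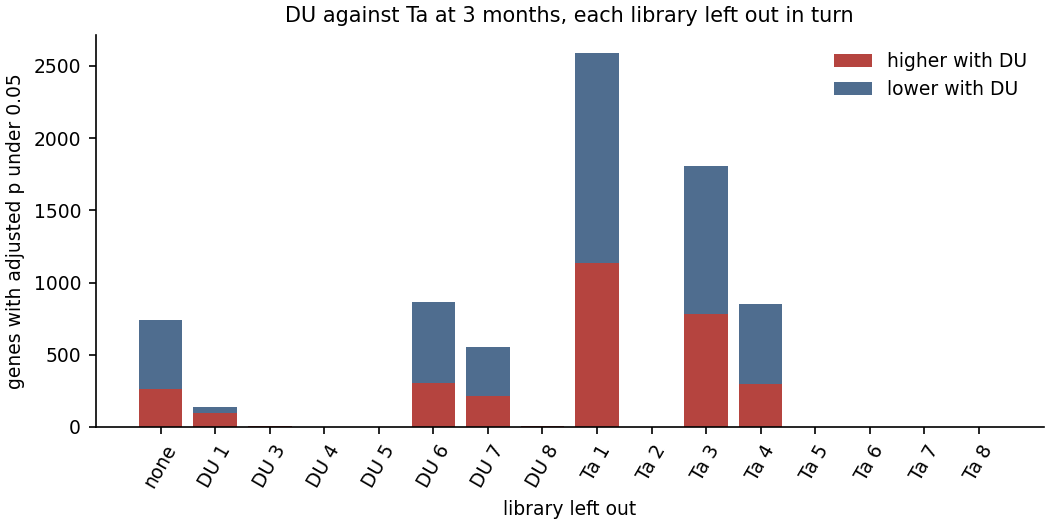
Number of genes with an adjusted p under 0.05 for DU against Ta at 3 months (edgeR), with all 15 libraries (none) and with each library left out in turn, split into genes higher and lower with DU. The total was 744 with all libraries and ran from 0 to 2587 with 1 left out.

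All of the large rises belonged to the transcripts of DU replicate 2. Of the 314 genes of that library, 116 had enough counts to be tested; 30 were higher with DU and 0 lower. The rises were 25.9% of these 116, against 2.12% of all genes tested. The list was made with the DU libraries in view, and genes scarce in Ta passed the low-count filter mainly through their counts in DU, so this share is a description. The 30 rises over 4-fold in the comparison were these 30 genes. The other 230 rises reached at most 1.67 on the log2 scale, with a median of 0.61. Of these 230, 104 were under 1.5-fold, 97 from 1.5-fold to 2-fold and 29 from 2-fold to 4-fold. The 484 falls had a median size of 0.79 on the log2 scale. Among them 103 were under 1.5-fold, 262 from 1.5-fold to 2-fold, 111 from 2-fold to 4-fold and 8 over 4-fold. Refitted without the 314 genes, a setting chosen after seeing the data, the comparison gave 235 higher and 430 lower genes. Without DU replicate 3 as well, it gave 0 calls, and 3074 genes had a p under 0.05 before adjustment. Without DU replicate 3 alone these genes numbered 3114. Leaving out any of 7 other single libraries, with the 314 genes kept, also gave 0 calls. No other library was left out together with the 314 genes.

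**Figure D3:**
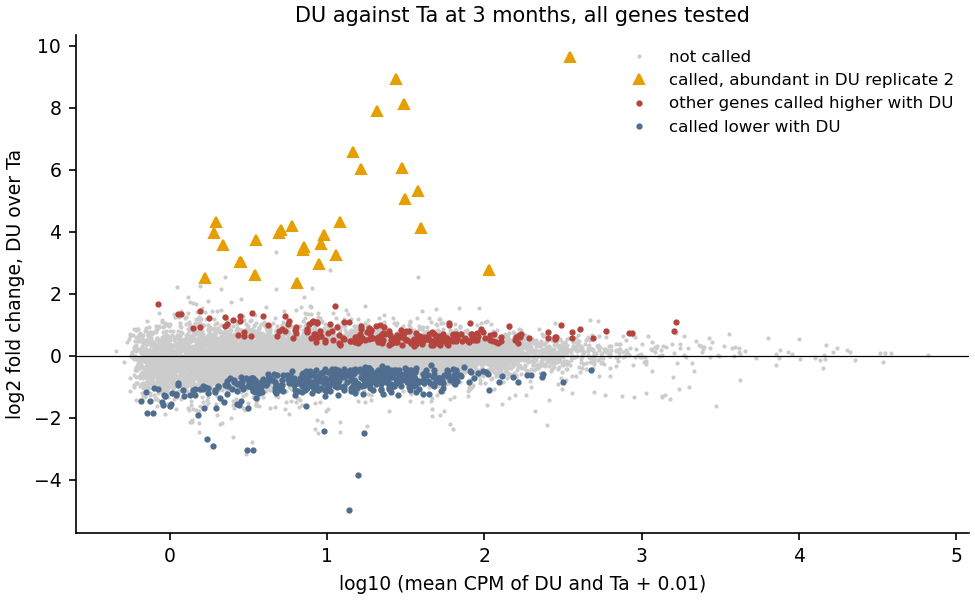
Log2 fold change of DU over Ta against the log10 of the mean CPM of both groups, for the 12291 genes tested at 3 months. The 30 triangles, genes abundant in DU replicate 2, hold all rises over 4-fold, and the other 230 called rises reach at most 1.67.

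The gene with the largest called rise was ENSRNOG00000002911. Its level in DU replicates 1, 3, 4, 5, 6, 7 and 8 was 0, 3731, 347, 279, 274, 187 and 69.6 CPM. In Ta it had 7.38 CPM in replicate 5 and no count in the other 7 libraries. All DU libraries but replicate 1, which had no count, were thus above every Ta library. The log2 fold change was 9.62 ± 1.80 (SE, edgeR adjusted p = 0.0378). In DU replicate 2, which was outside the fit, the gene stood at 148034 CPM. In the DU groups of 1, 6 and 12 months it averaged 0.127 ± 0.252, 0.151 ± 0.261 and 0.267 ± 0.287 CPM (SD, n = 8 each). The highest mean outside the DU group of 3 months was that of Ta at 12 months, 4.98 ± 7.42 CPM (SD, n = 8).

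ENSRNOG00000037188 had the next largest rise. It had 0, 287, 34.0, 12.6, 23.3, 18.8 and 8.29 CPM in DU replicates 1, 3, 4, 5, 6, 7 and 8. Among the Ta libraries only replicates 5 and 8 had counts, at 0.863 and 0.0949 CPM. The order of the DU libraries was thus close to that of the gene before it, with replicate 3 highest and replicate 1 at 0. Its log2 fold change was 8.93 ± 1.44 (SE, edgeR adjusted p = 0.0335), and in DU replicate 2 it stood at 4911 CPM. Both genes passed the low-count filter because Ta replicate 5 also had counts; without that library they were not tested. DU replicate 3 was far above the other DU libraries in both. Without it ENSRNOG00000037188 was still called, with a log2 fold change of 7.15 (edgeR adjusted p = 0.0381), and ENSRNOG00000002911 had one of 7.77 and missed the threshold (edgeR adjusted p = 0.0636). With quality-weighted limma voom neither was called: ENSRNOG00000002911 had a log2 fold change of 8.20 (adjusted p = 0.357) and ENSRNOG00000037188 one of 5.92 (adjusted p = 0.218). DESeq2 gave ENSRNOG00000002911 a log2 fold change of 6.56 (adjusted p = 0.0805).

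The largest called fall was that of ENSRNOG00000043451. Its level in DU replicates 1, 3, 4, 5, 6, 7 and 8 was 0.0513, 1.27, 0.416, 2.53, 0.924, 0.746 and 0.377 CPM. In Ta replicates 1 to 8 it was 0.275, 29.5, 50.8, 118, 4.16, 6.40, 1.88 and 1.71 CPM. The groups overlapped: Ta replicate 1 was as low as the DU libraries, and replicates 7 and 8 were below DU replicate 5, while Ta replicates 2, 3 and 4 were far above the rest. The log2 fold change was -4.97 ± 1.15 (SE, edgeR adjusted p = 0.0396). With the replicate number as a block it was -3.55 and missed the threshold (edgeR adjusted p = 0.0521). In the DU groups of 1, 6 and 12 months the gene averaged 12.6 ± 23.2, 2.47 ± 3.85 and 12.5 ± 28.5 CPM (SD, n = 8 each). With P at 3 months it averaged 0.693 ± 0.652 CPM and with Ni 8.95 ± 16.1 CPM (SD, n = 8 each).

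ENSRNOG00000008816 had the next largest fall. In DU replicates 1, 3, 4, 5, 6, 7 and 8 it stood at 1.54, 1.55, 2.20, 1.77, 2.77, 3.61 and 1.01 CPM, and in Ta replicates 1 to 8 at 2.55, 52.1, 36.5, 129, 2.90, 5.30, 2.70 and 2.18 CPM. Ta replicates 2, 3 and 4 again carried the difference in level, and Ta replicates 1, 5, 7 and 8 lay inside the DU range. The log2 fold change was -3.84 ± 0.94 (SE, edgeR adjusted p = 0.0413). With quality-weighted limma voom it was -1.67 (adjusted p = 0.0606), and without the low-count filter -3.85 (edgeR adjusted p = 0.0599), neither of which passed. With the replicate number as a block it was -1.97 and did not pass either (edgeR adjusted p = 0.159). The same gene varied widely with DU at 12 months, where its lowest, median and highest levels were 3.79, 19.4 and 527 CPM. With Co at 3 months it averaged 34.3 ± 33.6 CPM and with P 2.18 ± 1.55 CPM (SD, n = 8 each). In both falls named here the highest levels were those of Ta replicates 2, 3 and 4.

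Most called genes were of middling abundance. By their mean level in Ta, 148 of the rises and 307 of the falls lay between 10 and 100 CPM, the class that held 5710 of the genes tested. Among the 5014 genes of 1 to 10 CPM, 64 were higher and 158 lower with DU. Among the 887 genes of 100 to 1000 CPM, 23 were higher and 17 lower. The 90 most abundant genes, at 1000 CPM or more, gave 2 rises and no fall, and their median log2 fold change was 0.08. Of 590 genes under 1 CPM in Ta, 23 were higher and 2 lower. Membership of this last class required scarcity in Ta, so a gene in it tended to pass the low-count filter through a high level in DU.

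Complete separation of the groups was rare. All 7 DU libraries lay above all 8 Ta libraries for 45 genes (0.366% of those tested), 37 of which were called. All DU libraries lay below all Ta libraries for 17 genes (0.138%), 16 of which were called. These were 14.2% of the called rises and 3.31% of the called falls. The other called genes overlapped between the groups in at least 1 library.

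The overlap came mostly from a few Ta libraries. For the 230 rises that were not transcripts of DU replicate 2, the mean log2 CPM was 5.17, 5.35, 5.02, 5.38, 4.87, 4.86 and 5.03 in DU replicates 1, 3, 4, 5, 6, 7 and 8. In Ta replicates 1 to 8 it was 4.77, 4.23, 4.77, 4.52, 4.25, 4.16, 4.35 and 4.04. For the 484 falls it was 3.01, 2.98, 3.12, 2.98, 3.36, 3.34 and 3.14 in the same DU libraries and 3.21, 4.03, 3.60, 3.91, 3.99, 4.15, 4.02 and 4.25 in the Ta libraries. Ta replicates 1 and 3 were nearest to DU in both sets, and for the falls Ta replicate 1 lay inside the DU range. As the genes were chosen on these libraries, the gap between the groups is a description and not a test.

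Gene by gene the same Ta libraries stood out. Ta replicate 1 lay inside the range of the DU libraries for 143 of the 230 rises and 345 of the 484 falls. Ta replicate 3 did so for 143 and 257, and replicate 4 for 39 and 112. The other 5 Ta libraries did so for 1 to 15 of the rises and 8 to 43 of the falls. Over all genes tested, Ta replicates 1 and 3 lay inside the DU range for 68.2% and 81.3%, and the other Ta libraries for 39.7% to 56.3%. On the first principal component of the 15 libraries, which held 31.8% of the variance, Ta replicates 1 and 3 were placed among the DU libraries and the other 6 Ta libraries beyond them.

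**Figure D4:**
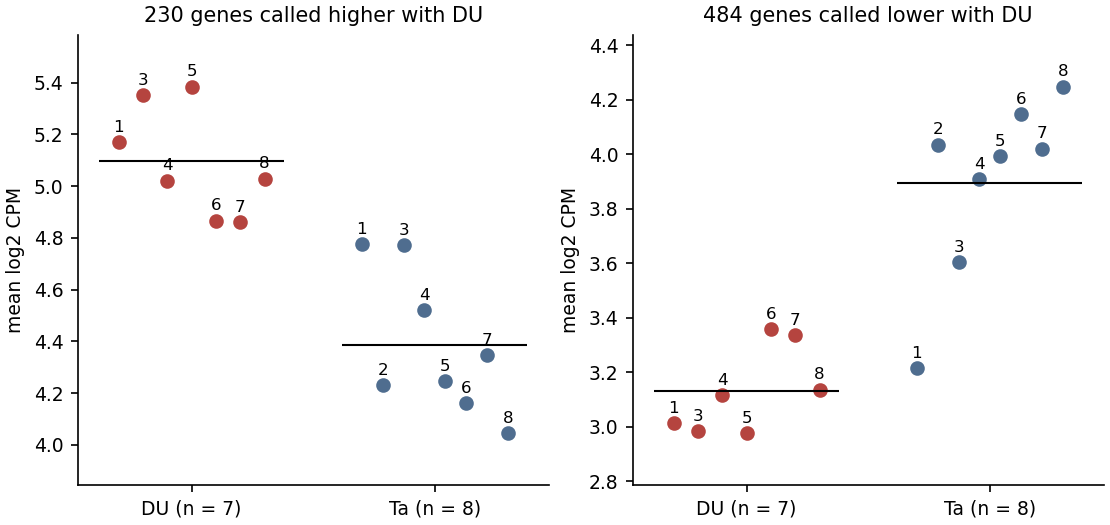
Mean log2 CPM of 230 genes called higher (left) and 484 genes called lower (right) with DU at 3 months, in each DU and Ta library; numbers are replicates and lines are group means. For both sets Ta replicates 1 and 3 are the Ta libraries nearest to DU.

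The called genes were then followed in the other groups. Over the 7 DU libraries of 3 months the 230 rises averaged a log2 CPM of 5.10 ± 0.21, against 4.39 ± 0.28 over the 8 Ta libraries (SD). With P at 3 months they averaged 4.98 ± 0.19 and with Ni 4.53 ± 0.32 (SD, n = 8 each). The 484 falls averaged 3.13 ± 0.16 with DU and 3.90 ± 0.33 with Ta (SD, n = 7 and 8). With P they averaged 3.26 ± 0.18 and with Ni 3.71 ± 0.34 (SD, n = 8 each). In the order of the 19 groups, Ta at 3 months ranked 18 for the rises and 2 for the falls, and Co at 3 months, at 4.36 ± 0.41 and 4.04 ± 0.48 (SD, n = 8 each), was the one group beyond it. As the genes were chosen for a gap between DU and Ta at 3 months, the ranks of these 2 groups are a description and not a test. DU at 3 months ranked 2 for the rises and 16 for the falls. Its mean for the rises lay below that of Ta at 6 months, 5.17 ± 0.35 (SD, n = 8), by less than 1 SD of either group.

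In the same genes DU stood closer to Ta at the other times. For the rises the difference in mean log2 CPM between DU and Ta was 0.18 at 1 month, 0.71 at 3 months, where the genes were chosen, -0.23 at 6 months and -0.09 at 12 months. For the falls it was -0.20, -0.77, 0.21 and 0.19 at these times. The DU means moved little, from 4.79 to 5.10 for the rises and from 3.13 to 3.42 for the falls. The Ta means spanned 4.39 to 5.17 and 2.99 to 3.90. These spans include the DU and Ta means of 3 months, on whose libraries the genes were chosen. A smaller gap at the other times can follow from that choice, so the spans are a description and not a test.

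**Figure D5:**
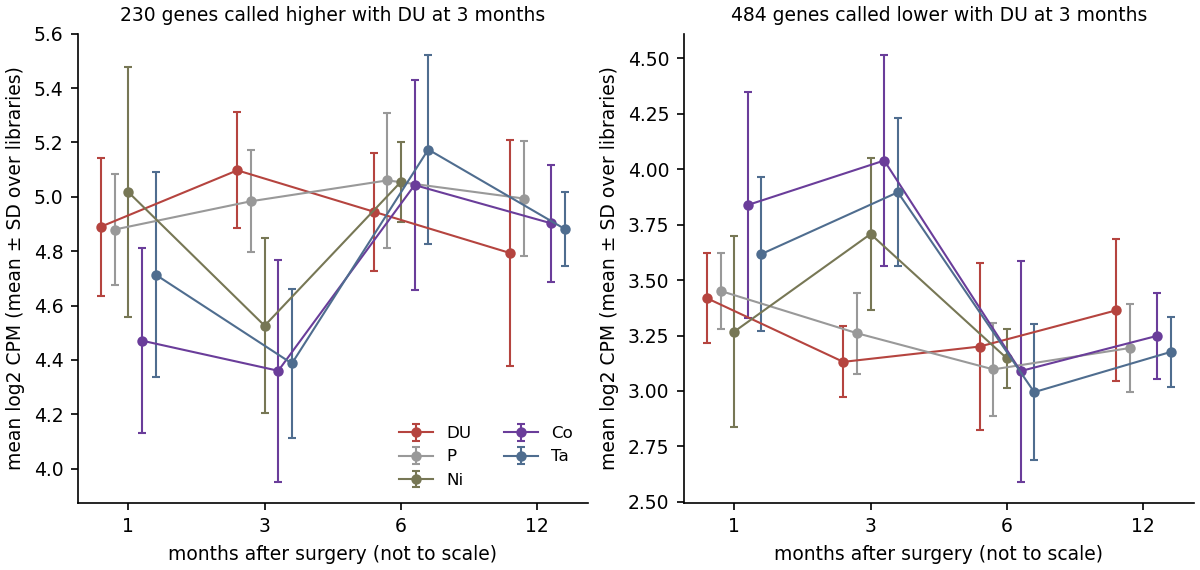
Mean log2 CPM (mean ± SD over libraries) of the 230 genes called higher and the 484 genes called lower with DU at 3 months, by metal and months after surgery. At 3 months Ta, Co and Ni lie low for the rises and high for the falls, while DU and P lie near their levels at the other times. The genes were chosen on the DU and Ta libraries of 3 months.

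Whether the difference between DU and Ta depended on time was tested with interaction terms. These 3 tests share the DU and Ta libraries of 3 months and are not independent of each other. Between 3 months and 1 month no gene of 12983 differed at the threshold with edgeR (0%), although 1028 had a p under 0.05 before adjustment; the lowest adjusted p was 0.0625. With DESeq2 the count was 59, of which 51 had a higher DU-over-Ta difference at 3 months. With quality-weighted limma voom it was 330, with 221 higher. The edgeR count was 12 without DU replicate 1, 4 without DU replicate 3 and 3 without DU replicate 8, all higher at 3 months. How many of the genes called in these fits were transcripts of DU replicate 2 was not counted. That no gene was called does not show that the metals differed alike at the 2 times.

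Between 3 and 6 months the difference changed for 1475 of 12939 genes (11.4%). The DU-over-Ta difference was higher at 3 months for 790 genes, 37 of them transcripts of DU replicate 2, and lower for 685. The other 753 of the 790 had at 3 months a mean log2 CPM of 4.99 ± 0.21 with DU (SD, n = 7) and 4.35 ± 0.31 with Ta (SD, n = 8). At 6 months they averaged 4.83 ± 0.19 with DU and 5.18 ± 0.39 with Ta (SD, n = 8 each). The 685 averaged 3.05 ± 0.18 with DU (SD, n = 7) and 3.73 ± 0.34 with Ta (SD, n = 8) at 3 months, and 3.20 ± 0.34 with DU and 2.82 ± 0.30 with Ta at 6 months (SD, n = 8 each). In both sets the 2 DU means lay closer together than the 2 Ta means. As the genes were chosen on these same libraries, this is a description and not a test. DU replicates 1, 3, 4, 5, 6, 7 and 8 of 3 months were left out in turn. The counts were then 661, 363, 1078, 382, 1826, 1498 and 947. With Ta replicates 1 to 8 of 3 months left out in turn they were 2632, 871, 2167, 1579, 696, 405, 929 and 638.

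Between 3 and 12 months the difference changed for 865 of 12943 genes (6.68%), 168 of them higher and 697 lower at 3 months. As these genes too were chosen on the libraries shown, their means are a description and not a test. Among the 168 were 44 transcripts of DU replicate 2, and the other 124 had at 3 months a mean log2 CPM of 4.82 ± 0.09 with DU (SD, n = 7) and 4.22 ± 0.25 with Ta (SD, n = 8). At 12 months these genes averaged 4.39 ± 0.33 with DU and 4.77 ± 0.08 with Ta (SD, n = 8 each). The 697 averaged 2.41 ± 0.12 with DU (SD, n = 7) and 3.07 ± 0.36 with Ta (SD, n = 8) at 3 months, and 2.95 ± 0.57 with DU and 2.31 ± 0.16 with Ta at 12 months (SD, n = 8 each). In this set 1 DU library of 12 months, replicate 6, stood at 4.32, against 2.62 to 3.02 in the other 7. When that library was left out, which was decided with the data in view, the split was 188 higher and 477 lower. At 3 months Ta replicate 1 had a mean of 2.24 for these genes, inside the DU range of 2.23 to 2.59, against 2.94 to 3.34 in the other Ta libraries. Leaving out DU replicate 1, 3, 4, 5, 6, 7 or 8 of 3 months gave counts of 504, 562, 577, 527, 903, 686 and 494. Leaving out Ta replicates 1 to 8 of 3 months in turn gave 2109, 527, 1371, 780, 539, 445, 629 and 543.

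A direct comparison of DU with P at 3 months, which uses no Ta library, called 0 of 12260 genes with edgeR (0%). The lowest adjusted p was 0.275, and 369 genes, 3.01%, had an unadjusted p under 0.05, against 31.3% for DU and Ta. DESeq2 called 262 genes, 254 of them higher with DU, and the model with all libraries called 113, of which 112 were higher with DU. Without DU replicate 1, the DU library with almost no counts from the 58 genes above, edgeR called 47 genes, all higher with DU, and without DU replicate 3 it called 3. How many of the genes called in these fits of DU and P were transcripts of DU replicate 2 was not counted. These calls can therefore not be read as a difference between muscle with DU and muscle with P. A count of 0 does not show that the 2 metals act alike.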

How the data were processed

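The deposited table holds the authors' raw whole-number counts per gene for rat muscle libraries, and labels assigned each column to its library. HISAT2 2.0.5 (alignment, build Rnor_6.0) and featureCounts 1.5.0-p3 (counting) are the tools in the submitters' processing notes. Which annotation and strand setting were used is not given in the sources used here. Genes that overlap, lie antisense or have near-identical copies may thus share counts. Libraries came from a stranded total RNA kit, per the labels' protocols; no lane or batch was given for any library.

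Each comparison was fitted on its own groups with edgeR 4.0.16 (R 4.3.3, limma 3.58.1): filterByExpr, TMM factors, robust dispersions and the quasi-likelihood test, with Benjamini-Hochberg adjustment over all genes tested and a threshold of 0.05. The procedure was run on simulated counts whose dispersions were the same in all groups. In these data the spread was larger in Ta for most genes, so that run does not test the calls given here. SEs were derived from the F statistics. CPM used TMM factors of the whole series; a prior count of 2 was added for log2 CPM. No library pair within a group matched within sampling noise (lowest chi-square per degree of freedom 19.7 with DU and 20.4 with Ta).

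The members, gene lists and tests were chosen with earlier results of these data known. Named genes had to be called, average at least 1 CPM in a group and have at least 6 of 7 DU libraries beyond the Ta median. The rule also asked for a gene name and took more genes. With 0 of 32545 identifiers matched in the RefSeq table (GRCr8), the 2 largest rises and the 2 largest falls are given, no pathway or marker list could be tested, and no sequence is shown. Alternatives were DESeq2's size factors (RLE), no low-count filter, DESeq2 1.42.0, quality-weighted limma voom, all libraries in 1 model, the replicate number as a block, DU replicate 2 included and each library left out. Added after seeing the data were no TMM factors, thinned counts, glmQLFit with legacy=FALSE, fits without the 314 genes of DU replicate 2 or without DU replicate 3 as well, and a fit without DU replicate 6 of 12 months.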

Additional observations from a re-analysis of the deposited data

Results flagged for a closer look

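Single libraries stood apart from their group in 12 of 28 checks of groups of 7 or 8. Chance alone marks about 1 in 20 where values are spread normally. Many of the checks used unlogged CPM or counts of genes picked for large folds or for abundance in DU replicate 2. The 12 can therefore not be set against that rate. Several of the checks use the same libraries and genes. DU replicate 5 had the lowest TMM factor of the DU group, 0.722. It also had the group's highest share of counts, 51.4%, in the 20 genes most abundant by median over all libraries but DU replicate 2. DU replicate 3 was highest in the summed level of the genes abundant in DU replicate 2, at 18996 CPM of the unscaled library total, and in the counts of those near silent in Ta, at 15324. It was also highest for ENSRNOG00000002911, at 3731 CPM, and for ENSRNOG00000037188, at 287 CPM. Ta replicate 5 was the highest Ta library for the same 2 genes, at 7.38 and 0.863 CPM, and both genes were tested only because it had counts. Ta replicate 4 was highest for ENSRNOG00000043451, at 118 CPM, and for ENSRNOG00000008816, at 129 CPM. In the mean log2 CPM of the genes whose DU-over-Ta difference was lower at 3 than at 12 months, DU replicate 6 of 12 months was highest at 4.32, and Ta replicate 1 of 3 months was lowest at 2.24.

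The difference between DU and Ta at 3 months was unlike that at 6 months for 1475 genes and unlike that at 12 months for 865 genes, both by an interaction term in edgeR (adjusted p under 0.05). DU replicate 2, outside every comparison of the report, had 53.1% of its counts in the 314 genes that set it apart, against at most 0.0932% in the Ta libraries of 3 months.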

How the results depend on the processing

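The 4 named genes kept their sign in every fit that tested them, while most counts of calls moved and the balance of rises and falls turned in some fits. For DU against Ta at 3 months the 744 calls were 741 with DESeq2's size factors, 605 without the low-count filter, 665 without the genes of DU replicate 2, 731 with thinned counts and 986 with legacy=FALSE. They became 2279 with DESeq2, 4758 with limma voom (2482 higher, 2276 lower), 1575 with all libraries in 1 model (989 higher, 586 lower), and 0 with DU replicate 2 included, without TMM factors, or without both the genes of replicate 2 and DU replicate 3. All tested genes had a median log2 fold change of -0.03, which was 0.04 with DU replicate 2 included. Leaving out 1 library gave 0 to 2587. For 3 against 1 month the 0 calls became 59 with DESeq2, 330 with limma voom, 43 with all libraries, 9 with DU replicate 2 included and 0 to 12 with 1 library left out. For 3 against 6 months the 1475 became 557 without the filter, 2525 with DESeq2, 4765 with limma voom and 363 to 2632 with 1 library left out. For 3 against 12 months the 865 became 558 without the filter, 1778 with DESeq2, 4206 with limma voom, 2190 with all libraries, 519 with DU replicate 2 included and 445 to 2109 with 1 library left out. For DU against P the 0 became 262 with DESeq2, 113 with all libraries and 0 to 47 with 1 library left out. The cause of these moves was not tested.

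With the replicate number as a block the counts were 1779 for DU against Ta (932 higher, 847 lower), 0, 975 and 506 for 3 months against 1, 6 and 12 months, and 4 for DU against P. The labels tie the numbers to no rat. Same-numbered DU and Ta libraries deviated together with correlations of 0.0767 to 0.339, over 0.1 in 5 of 7 pairs, and 4 of 7 correlated best with their own number. This is a hint of a shared factor from the data. As the labels name none and not every pair was over 0.1, the main fit did not treat the libraries as paired. That choice does not show that no factor was shared.

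With the block ENSRNOG00000043451 had a log2 fold change of -3.55 (edgeR adjusted p = 0.0521) and ENSRNOG00000008816 one of -1.97 (edgeR adjusted p = 0.159), while both named rises passed. With DU replicate 2 included or without TMM factors none of the 4 passed. Further calls ended with DESeq2 for ENSRNOG00000002911, with limma voom for it, ENSRNOG00000037188 and ENSRNOG00000008816, and without the filter for ENSRNOG00000008816. Both falls also missed the threshold without DU replicate 3 and the genes of DU replicate 2. With 1 library left out, ENSRNOG00000002911 passed in 6 of 14 fits, ENSRNOG00000037188 in 8 of 14, and ENSRNOG00000043451 and ENSRNOG00000008816 each in 5 of 15. Alternatives on gene lists were not run because no list could be matched. Depth limits genes of few counts most.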
